A study of Drosophila melanogaster with 4 samples.

Results

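The regions described here are the broad H3K79me2 clusters of 3 autosome arms of Drosophila melanogaster, 2L, 3L and 3R, in larvae of the last (3rd) instar. They were chosen by their width in the whole-series list: every enriched cluster of at least 10 kb on these arms was taken, which gave 586 of the 3628 enriched clusters there and of 5971 in the whole list. The other 3042 clusters of the same arms are called narrower clusters. The study precipitated formaldehyde-fixed chromatin of wild-type Oregon-R larvae with a polyclonal rabbit antibody against dimethylated lysine 79 of histone H3 (Abcam ab3594, lot 1). It comprised 2 ChIP replicates and 2 input samples of the same strain and stage. One cluster list was analysed for each ChIP replicate besides the list for the whole series, and values of the inputs were not analysed here. The labels name no dissected tissue, so a cluster is taken over a mixture of larval cells. Whether replicates 1 and 2 were separate collections of larvae is not labelled, so an SD may hold technical spread alone.

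Lysine 79 lies on the surface of the nucleosome core and not on the histone tail. Methylation there is placed by Dot1, whose fly homologue is grappa, and is known from the bodies of actively transcribed genes. A cluster of many kilobases is therefore far longer than the single nucleosome that carries each mark. All positions below are on FlyBase release 5 and counted from 1. The score is the authors' own value per cluster. Its scale is unstated in those sources, so scores are compared only inside one list. None of the lists holds read counts, so the depth behind a cluster is unknown.

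The width used for the choice, and all measures taken from the same ChIP samples, are given as descriptions without a test. The labels and headers do not record how the whole-series list was made from the replicates, so replicate coverage of a whole-series cluster is not independent of it. Clusters of one list are not replicates, and an SD below is over the 2 ChIP replicates alone.

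Broad clusters were a minority of the clusters but held about as many bases as all the others: 16.2% of the clusters of the 3 arms carried 50.7% of the cluster bases, 10.99 of 21.7 Mb. They covered 14.6% of the sequence of these arms. Arm 3R held 230 of them, 3L held 185 and 2L held 171, or 8.24, 7.54 and 7.43 per Mb. The share of cluster bases inside them was 51.5% on 3R, 49.9% on 3L and 50.4% on 2L, so the 3 arms were alike in this respect. In the same list 17.3% of the clusters of 2R and 15.2% of those of X were at least 10 kb wide. Chromosome 4, with 35 clusters, and the heterochromatic and unplaced scaffolds, with 39, held none of that width.

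The widths fell off steadily from the limit of the rule. The median was 15858 bp, the quartiles were 12412 and 21730 bp, and the widest measured 88.9 kb. There were 265 members of 10 to 15 kb, 144 of 15 to 20 kb, 121 of 20 to 30 kb, 44 of 30 to 50 kb and 12 wider than 50 kb. These 12 carried 7.36% of all member bases. Just inside the limit lay 2L:18327558-18337562 (10005 bp) and, at 10017 bp each, 3R:8522856-8532872 and 3R:9945514-9955530. Just outside lay 3L:19584494-19594482 (9989 bp), 3R:25548796-25558764 (9969 bp) and 3L:11547048-11557000 (9953 bp).

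Members just inside the limit and clusters just outside it had similar covered shares and scores, and differed more in splitting in replicate 2. The 128 members of 10 to 12 kb had a median covered share of 98.5% in replicate 1 and 96.6% in replicate 2, against 98.4% and 96.1% for the 195 narrower clusters of 8 to 10 kb. Their median score was 1.24, against 1.20. The share found split in replicate 1 was 31.3% in members of 10 to 12 kb, against 28.7% in clusters of 8 to 10 kb. In replicate 2 it was 25%, against 13.8%.

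Each broad cluster was found, at least in part, in both ChIP replicates. All 586 members had a base in both replicate lists, against 1966 of the 3042 narrower clusters (64.6%), while over all clusters of these arms the share was 70.3%. A wide cluster meets a rule of 1 base more readily. The narrower clusters that were missed lay at the narrow end: of the 1047 clusters under 2 kb, 158 had a base in both replicates, whereas all 195 of 8 to 10 kb did. Between the replicate lists and the whole-series list, the members were thus as complete as the clusters next below them in width.

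The replicates covered nearly all of the bases of the broad clusters. Over all member bases the covered share was 95.8% in replicate 1 and 95.5% in replicate 2, which averages 95.6% ± 0.224 (SD, n = 2). For the narrower clusters it was 85.5% in replicate 1 and 75.4% in replicate 2, which averages 80.5% ± 7.14 (SD, n = 2). The replicates thus lay within 1 percentage point of each other in the broad clusters and about 10 apart in the narrower ones. This contrast was not particular to the broad clusters. Clusters under 2 kb had median covered shares of 84.4% in replicate 1 and 0 in replicate 2. Those of 8 to 10 kb had 98.4% and 96.1%, close to the 98.5% and 96.6% of members of 10 to 12 kb. Per member, the covered share in replicate 1 ran from 36.6% to 100% with a median of 98.0%, and in replicate 2 from 52.9% to 100% with a median of 97.7%. The medians of the narrower clusters were 96.1% in replicate 1 and 83.9% in replicate 2, both with a lowest value of 0.

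**Figure D1:**
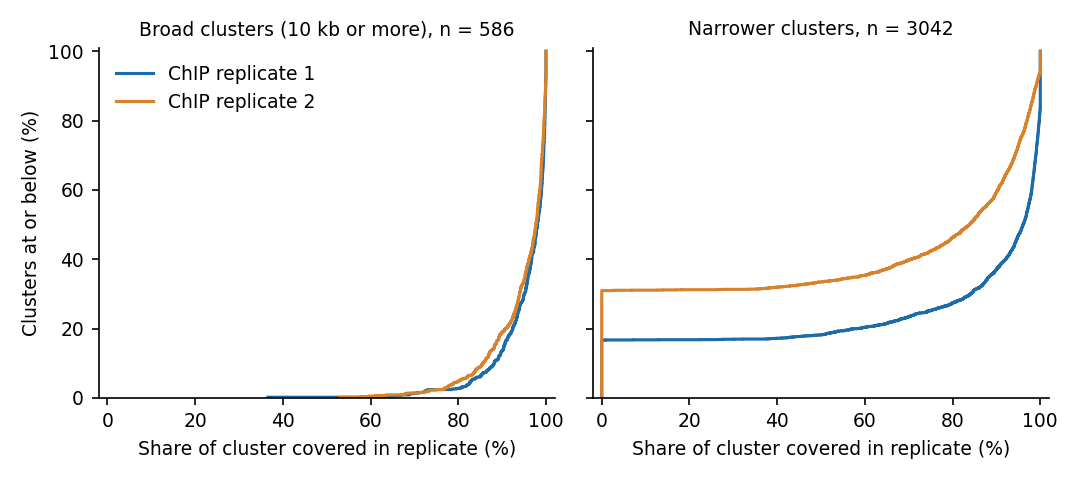
Share of each cluster's length (horizontal axis, %) covered in ChIP replicate 1 (blue) and ChIP replicate 2 (orange), as cumulative curves over clusters (vertical axis, %), for the 586 broad clusters on the left and the 3042 narrower clusters on the right. The broad clusters have no values at 0 and their curves for the replicates nearly coincide, while 506 narrower clusters stand at 0 in replicate 1 and 941 in replicate 2. Of these, 458 in replicate 1 and 787 in replicate 2 were under 2 kb wide.

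Coverage was at least 90% in both replicates for 417 of the 586 members (71.2%), against 871 of the 3042 narrower clusters (28.6%). The same shift of an edge takes a larger share of a short cluster, so this rule is harder for narrower clusters to meet. The contrast thus follows in part from the choice of the members. Restricted to the 1966 narrower clusters with a base in both lists, that share was 44.3%. Neither replicate was the more complete throughout: replicate 1 covered more of 317 members and replicate 2 more of 269, with a median difference of 3.39 percentage points in size. By arm, the covered share of member bases was 96.4% in replicate 1 and 95.1% in replicate 2 on 3R. On 2L it was 95.1% and 95.3%, and on 3L 95.6% and 96.1%, in the same order of replicates.

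A small set of members was covered poorly. In 41 of them the covered share was under 80% in at least one replicate, and in 3 it was under 80% in both. The lowest mean was that of 3R:19895536-19906264, with 66.9% in replicate 1 and 63.6% in replicate 2, the mean being 65.2% ± 2.36 (SD, n = 2). Next came 2L:14222932-14234274, with 36.6% in replicate 1 and 100% in replicate 2. This member showed the largest difference between the replicates of all 586: replicate 1 held 2 clusters, separated by 5464 bp, of which the last ended 1667 bp inside the member, where replicate 2 held 1 cluster throughout.

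The remaining 3 of the 5 least covered members were incomplete in both replicates. They were 3L:20723338-20734138 (65.2% in replicate 1 and 73.4% in replicate 2), 2L:4797000-4807912 (72.9% and 73.3%) and 3R:6344852-6355364 (81.7% and 67.7%). Large differences in the other direction, with replicate 1 the higher, were found in 3R:20466754-20477314 (100% in replicate 1 and 52.9% in replicate 2) and 2L:13776558-13790468 (100% and 57.7%). The same held for 2L:3055950-3066558 (98.6% and 59.5%) and 2L:20087160-20097580 (100% and 61.0%). All of these were under 14 kb wide, in the narrow part of the members' range. The replicates differed by over 10 percentage points in 117 members (20.0%).

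The broad clusters were often broken into several pieces in a replicate, and more often in replicate 1. In replicate 1, 277 of the 586 members (47.3%) touched 2 or more clusters, where 12.8% of all clusters of these arms did. In replicate 2 it was 151 members (25.8%), where 7.55% of all clusters did. Splitting needs width, so these shares follow in part from the choice of the members. Replicate 1 also held the more clusters on these arms, 3747 against 2872 in replicate 2.

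Of the members, 238 (40.6%) touched a single cluster in each replicate and 80 were split in both. A further 197 were split in replicate 1 alone and 71 in replicate 2 alone. Of those split in replicate 2, 53.0% were also split in replicate 1, and of those split in replicate 1, 28.9% were also split in replicate 2. By width, the split share in replicate 1 was 33.6% at 10 to 15 kb, 52.8% at 15 to 20 kb, 62.0% at 20 to 30 kb and 56.8% at 30 to 50 kb. All 12 members over 50 kb were split in replicate 1 and 6 of them in replicate 2. In replicate 2 the share was 22.6%, 20.8%, 34.7% and 29.5% over the same 4 bands.

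**Figure D2:**
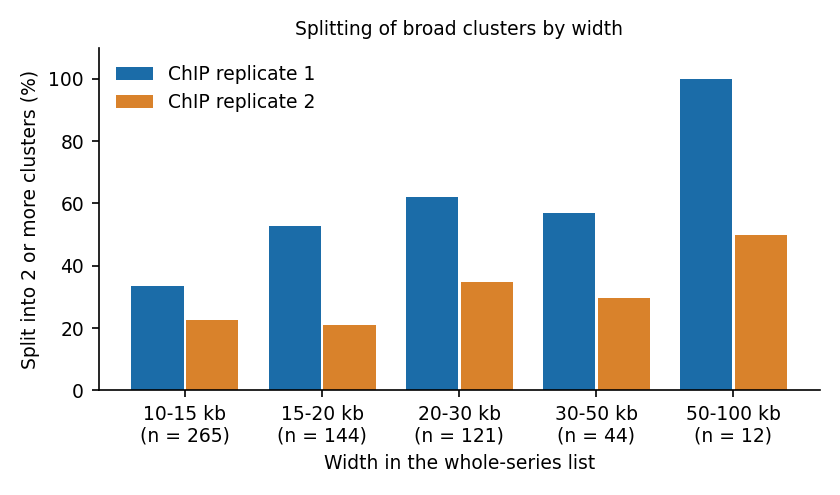
Share of broad clusters (vertical axis, %) that touched 2 or more clusters of ChIP replicate 1 (blue) or ChIP replicate 2 (orange), by width in the whole-series list (horizontal axis, with the number of members under each band). Replicate 1 is the higher in each of the 5 bands, and its share is 33.6% in the narrowest band and 100% in the widest.

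The breaks were short, and most of their bases were covered in the other replicate. The 434 gaps between pieces of replicate 1 had a median of 320.5 bp, and 84.1% were under 1 kb. The 195 gaps of replicate 2 had a median of 282 bp, and 81.5% were under 1 kb. They took up 2.10% of all member bases in replicate 1 and 1.00% in replicate 2. Only 8.65% of the gap bases of replicate 1 were also outside the clusters of replicate 2, and 13.8% of those of replicate 2 were outside the clusters of replicate 1. The rest of each replicate's breaks was covered in the other. Over all member bases the covered share was 95.5% in replicate 2 and 95.8% in replicate 1. Gap bases were thus covered in the other replicate less often than member bases as a whole. In split members the largest piece held a median of 59.4% of the member in replicate 1 and 68.3% in replicate 2.

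The widest broad clusters show how differently one region could be cut. The member with the most pieces in one replicate was 2L:12456384-12513704 (57.3 kb), which replicate 1 held as 9 clusters, none over 9.74 kb, and replicate 2 as 1 cluster of 57.8 kb. Its score in the pieces of replicate 1 ran from 0.170 to 1.74. The opposite was found on 3R:5739580-5814076 (74.5 kb), with 2 clusters in replicate 1 and 8 in replicate 2. Here the covered share was 97.6% in replicate 1 and 85.3% in replicate 2. The region 2L:4030560-4066968 (36.4 kb) held 7 clusters of replicate 1 and 1 of replicate 2.

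A further 5 members touched 6 clusters in one of the replicates, 3 of them in replicate 1 and 2 in replicate 2. The widest of these were on 3L and 3R. On 3L:22320928-22401518 (80.6 kb), replicate 1 held 5 clusters and replicate 2 held 6. In both, one long cluster reached the right edge, of 58.1 kb in replicate 1 and 48.6 kb in replicate 2, and the short pieces lay to its left. The member 3R:10554644-10617346 (62.7 kb) held 6 clusters of replicate 1, the longest of 25.6 kb, and 1 of replicate 2. Splits in matching places also occurred: on 3R:14873688-14957530 (83.8 kb) the last cluster began at 14943537 in replicate 1 and at 14943874 in replicate 2.

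**Figure D3:**
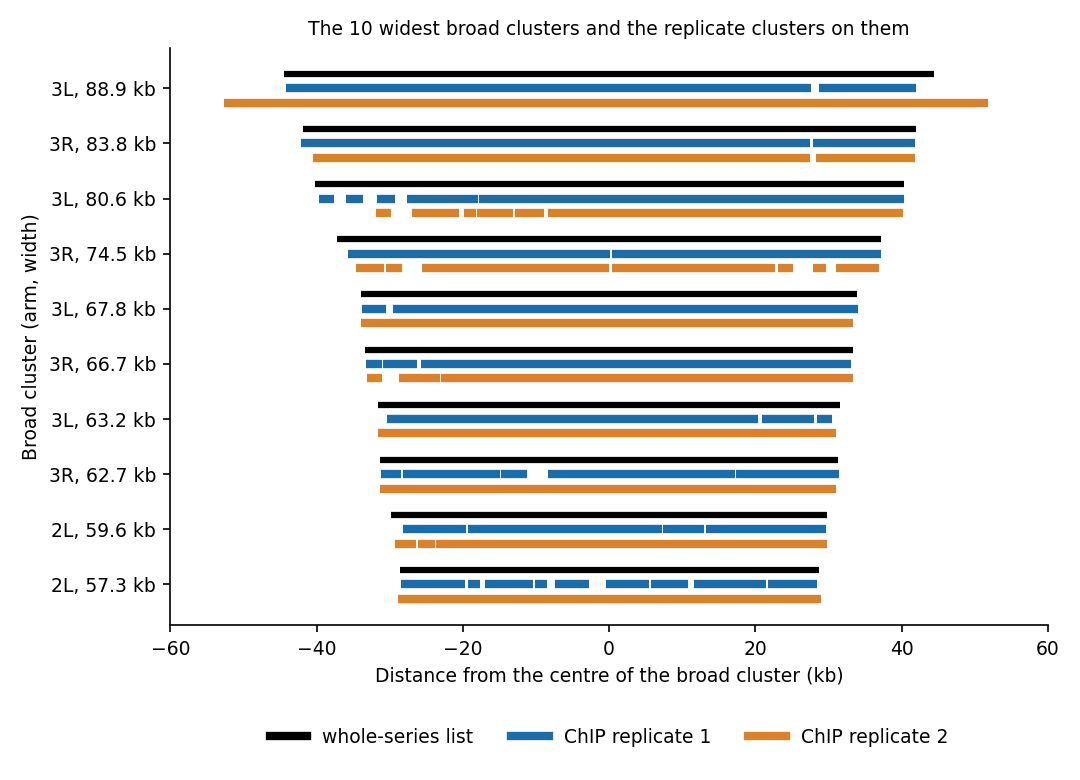
The 10 widest broad clusters, each as its whole-series cluster (black) above the clusters of ChIP replicate 1 (blue) and ChIP replicate 2 (orange) that touched it, drawn to scale by distance from its centre (horizontal axis, kb). All 10 were split in replicate 1, and 5 of them were whole in replicate 2.

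The widest member, 3L:17945706-18034566, was also the one with the highest score of all broad clusters, 2.45. Replicate 1 held it as clusters of 71.8 and 13.3 kb, and replicate 2 as 1 cluster of 104 kb that ran past both of its edges. The neighbouring whole-series clusters lay 977 bp to its left and 381 bp to its right. The remaining members among the 10 widest were 3L:507200-574994 (67.8 kb), 3R:10241302-10307984 (66.7 kb), 3L:8818806-8881978 (63.2 kb) and 2L:7918412-7978026 (59.6 kb), the widest of 2L. In both replicates the covered share of all 4 was 94.9% or more.

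Fewer clusters reached 10 kb in a replicate's own list. Replicate 1 held 480 clusters of at least 10 kb on these arms and replicate 2 held 517, with 40.3% and 51.3% of the cluster bases of their lists. Of the 586 members, 452 (77.1%) touched such a cluster of replicate 1, 496 (84.6%) one of replicate 2 and 389 (66.4%) one of each. The 27 members that touched none had a median width of 11445 bp and a median score of 0.797. The 389 had medians of 17553 bp and 1.47.

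In the other direction, nearly all wide clusters of a replicate lay on a member. Of those of replicate 1, 474 of 480 did, and of replicate 2, 495 of 517. No wide cluster of replicate 1 reached across 2 members, while 12 of replicate 2 did, among them 2L:9164945-9218922 (54.0 kb). The 5 widest that touched no member were all of replicate 2. They were 2L:17373165-17401796 (28.6 kb), 3R:17867197-17892984 (25.8 kb), 3L:10345491-10366879 (21.4 kb), 3L:7831976-7848596 (16.6 kb) and 3R:5438181-5452363 (14.2 kb). In the whole-series list these regions held 2 to 4 clusters each, the widest of them 9.76 kb, which together filled 89.6% or more of each region.

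The edges of the broad clusters were placed close to those of the replicate clusters in most cases. In replicate 1 the outermost cluster edges lay a median of 56 bp from the start and 54 bp from the end of the member. In replicate 2 these medians were 146.5 and 123 bp. Both edges were within 500 bp in 440 members (75.1%) in replicate 1 and in 331 (56.5%) in replicate 2. For narrower clusters with a base in the replicate, the shares were 83.5% and 65.3%. Replicate clusters ran more than 1 kb past an edge of 14 members (2.39%) in replicate 1 and of 59 (10.1%) in replicate 2. The shares of these narrower clusters were alike, 2.72% and 10.6%. Replicate clusters stopped more than 1 kb inside an edge of 77 members (13.1%) in replicate 1 and of 115 (19.6%) in replicate 2. For the narrower clusters these shares were 7.81% and 13.9%.

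Coverage changed sharply at these edges. As means of both edges, 27.2% of the bases 1 kb outside were covered in replicate 1 and 25% in replicate 2, and 93.2% and 89.8% of the bases 1 kb inside. At 5 kb outside the covered shares stood higher again, at 43.5% and 40.0%, and at 20 kb outside at 39.9% and 37.4%. The low share just outside is set by the definition of a cluster, which ends where enrichment was no longer called. The covered bases farther out lie in neighbouring clusters.

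**Figure D4:**
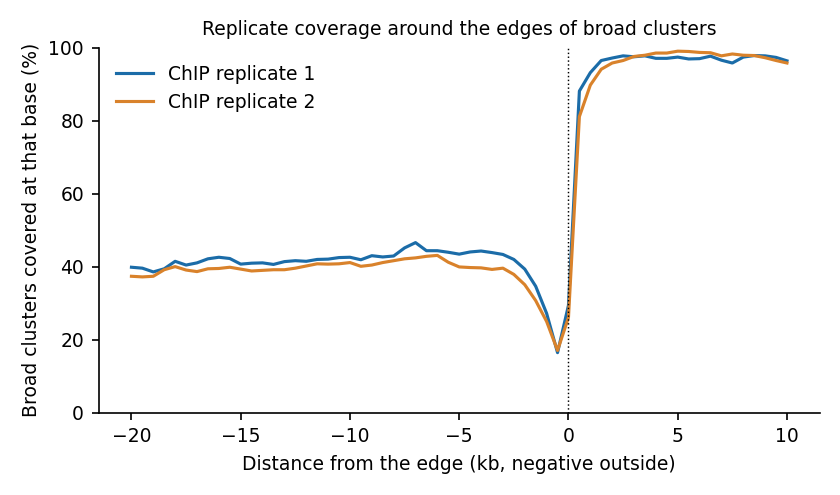
Share of broad clusters (vertical axis, %) covered in ChIP replicate 1 (blue) or ChIP replicate 2 (orange) at each distance from a cluster edge (horizontal axis, kb, negative outside the cluster), as the mean of left and right edges. Coverage is 16.5% and 17.1% at 0.5 kb outside and 97.4% and 99.1% at 5 kb inside.

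Broad clusters lay in surroundings that held many other clusters. The nearest enriched cluster of any width was a median of 757 bp away, against 910 bp for narrower clusters, and it was under 1 kb away for 345 members (58.9%), against 1573 narrower clusters (51.7%). Isolated members were few: 32 (5.46%) had no other cluster within 10 kb, against 261 narrower clusters (8.58%). In the 50 kb on either side of a member, a median of 40.5% of the bases lay in whole-series clusters, against 36.7% around narrower clusters. The medians were 36.9% against 32.7% in replicate 1 and 35.0% against 30.8% in replicate 2. The difference was small beside the range within each class, the quartiles of the members being 27.6% and 53.9% in the whole-series list.

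The nearest cluster was another broad one for a minority of the members. For 112 members (19.1%, Wilson 95% interval 16.1 to 22.5) the nearest cluster was itself at least 10 kb wide. For narrower clusters it was 512 (16.8%, 15.5 to 18.2), and broad clusters made up 16.2% of all clusters. The intervals overlap, but they treat clusters as independent, although members can be each other's nearest cluster. They are thus no test of a difference between the classes. When neighbours less than 1 kb apart were merged before the choice by width, the share for broad clusters was 31.6%. Merging also raised their number to 708. Their share of all merged clusters was not computed, so 31.6% cannot be set against 16.2%. Between consecutive members lay a median of 3 narrower clusters and at most 37, and in 119 of 583 pairs (20.4%) none.

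Measured in bases, members stood somewhat closer to the nearest broad cluster than narrower clusters did. The gap had a median of 16.9 kb for members, with quartiles of 4.94 and 55.0 kb, against 22.3 kb for narrower clusters, with quartiles of 5.98 and 60.1 kb. The median for members was 14.1 kb on 2L, against 22.7 kb for narrower clusters. It was 17.2 kb against 24.3 kb on 3L and 18.1 kb against 20.5 kb on 3R. The direction was thus the same on each arm.

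**Figure D5:**
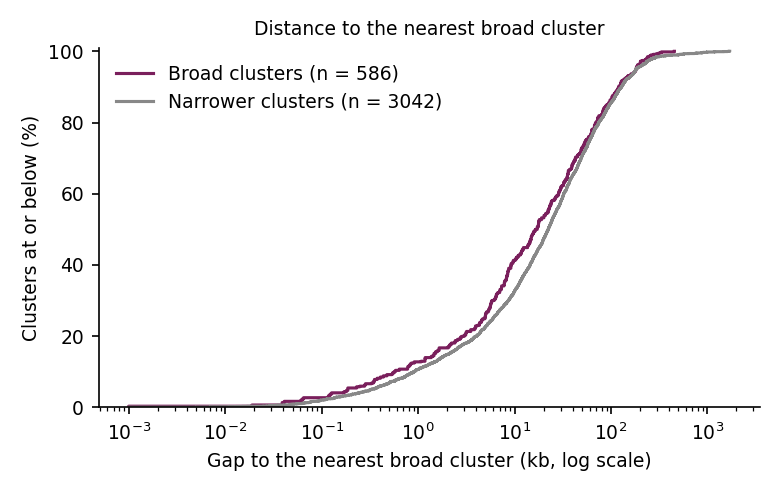
Cumulative share of clusters (vertical axis, %) by the gap to the nearest other broad cluster (horizontal axis, kb, log scale, gaps of 0 drawn at 0.001 kb), for the 586 broad clusters (purple) and the 3042 narrower clusters (grey). The curve of the broad clusters lies to the left around the medians of 16.9 and 22.3 kb, and the curves meet at gaps of about 100 kb.

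Gaps between consecutive members were very uneven. Over 583 gaps the mean was 104 kb and the SD 140 kb, with a median of 50.3 kb. Of these, 137 (23.5%) were under 10 kb and 100 (17.2%) were at least 200 kb. When members under 10 kb apart were joined into chains, 242 of the 586 (41.3%) fell into 105 chains, 83 of them pairs and 17 of them of 3 members. The other 344 members stood alone. By the same limit, 990 of the 3042 narrower clusters (32.5%) had a broad cluster under 10 kb away.

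The longest chains lay on 2L and 3L and held 6 members each. On 2L the chain ran from 1650624 to 1752856 (102.2 kb), of which 82.3 kb were member bases, with widths from 10.1 to 16.2 kb. It was covered over 80.6% in replicate 1 and 83.0% in replicate 2. The chain of 3L ran from 1492224 to 1600426 (108 kb, with 93.6 kb of member bases), and was covered over 86.3% and 81.8%. In these chains several adjoining whole-series clusters were separated by under 1 kb, such as the gap of 39 bp before 1716594 on 2L. On 3R no chain exceeded 3 members, and the widest ran from 10493922 to 10617346 (123 kb). It included the 62.7 kb member described above and had gaps of 565 and 853 bp.

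Along the arms the covered share of both classes varied from window to window. Over 74 full windows of 1 Mb, broad clusters covered a median of 13.8% and from 0 to 37.3%, and narrower clusters a median of 14.2% and from 0.347% to 27.6%. The coefficient of variation over windows was 0.501 for broad clusters and 0.307 for narrower ones. The classes differ in number and width by the choice of the members, so these coefficients do not show that broad clusters were the more concentrated. Of the member bases, 50% lay in 24 of the 74 windows. Across windows the covered shares of the classes had a Spearman correlation of 0.304 (n = 74 windows of the same list, which share its cluster calls).

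The densest windows held up to 16 members. On 3R the densest was 5000001 to 6000000, with 16 members over 37.3% of the window. It was covered over 52.6% in replicate 1 and 51.0% in replicate 2. On 2L it was the first megabase, with 16 members over 31.1%, and on 3L it was 3000001 to 4000000, with 15 members over 27.2%. In these windows, which were picked for their broad clusters, narrower clusters covered 18.4% on 3R, 12.1% on 2L and 16.1% on 3L, against their median of 14.2% over all windows.

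Toward the tips of the chromosomes broad clusters were more frequent. Of the members, 246 (42.0%) lay in the outermost of 3 equal parts of their arm, 182 (31.1%) in the middle part and 158 (27.0%) in the part next to the centromere. Narrower clusters were spread more evenly, with 34.5%, 34.4% and 31.1%. The share in the outermost part was 48.0% of members against 33.7% of narrower clusters on 2L, 44.3% against 38.6% on 3L and 35.7% against 31.5% on 3R. It was the higher for members on each arm, and 2L showed the widest difference.

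Next to the centromere the arms differed. On 2L and 3L no member lay in the last 1 Mb, and the stretches without a member reached from 21256627 to the end of 2L (1755 kb) and from 22867311 to the end of 3L (1676 kb). On 3R, 7 members lay in the 1 Mb next to the centromere, beside 48 narrower clusters. The same 1 Mb held 15 narrower clusters on 2L and 0 on 3L, so the arms differed there in both classes. The stretch of 2L still held 31 narrower clusters over 5.58% of its length, and that of 3L held 6 over 0.903%.

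The longest stretches between members also held narrower clusters. On 2L the stretch from 14689695 to 16269491 (1580 kb) held 31 narrower clusters over 6.86%, with 5.95% covered in replicate 1 and 5.89% in replicate 2. On 3R the stretch from 12185389 to 12879173 (694 kb) held 37 over 16.9%, with 15.1% and 12.9% in the replicates. On 3L it ran from 18098879 to 18745181 (646 kb) and held 16 over 9.85%. The stretches hold no wide cluster by definition. Narrower clusters covered less than their median of 14.2% per window in those of 2L and 3L, and more in that of 3R. Clusters called as depleted numbered 8 on these arms in the whole-series list, 11 in replicate 1 and 2 in replicate 2. Of them, 0 touched a member. With so few calls, and members over 14.6% of the arms, that 0 says little about the members.

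In score the broad clusters stood high in each list, which follows in part from the choice, since width and score rise together. The median score in the whole-series list was 1.37, with a range from 0.485 to 2.45, against 0.473 and a range from 0.00120 to 2.41 for narrower clusters. Weighted over their pieces, the members' replicate scores had a median percentile of 78.1 among all clusters of replicate 1 and of 80.4 in replicate 2. Among the members themselves width said little about score, with a Spearman correlation of 0.199 (n = 586), against 0.785 among narrower clusters (n = 3042). Clusters of one list share its calls, and the range of widths is cut by the rule.

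Members held as 1 cluster in each replicate scored higher than those that were cut. The median score was 1.52 for the 238 that were whole in each replicate, with a median width of 13943 bp. It was 1.25 for the 348 that were split in either replicate, whose median width was 16961 bp. For the 80 of these that were split in both it was 1.17, with a median width of 20344 bp. After the widest cluster, the highest scored members were 2L:5316462-5328858 (2.36), 3L:307256-320508 (2.26), 3R:2243754-2271034 (2.21) and 3R:20041262-20074132 (2.16). All 4 were whole in replicate 1 and covered over at least 96.2% in each replicate. In replicate 2 the last of them was split into 2 clusters. The widest cluster was itself split into 2 in replicate 1.

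The lowest scored members were cut in replicate 1 without exception. They were 2L:8278710-8290436 (0.485), 2L:14656918-14668614 (0.497), 3R:19895536-19906264 (0.550), 2L:2432350-2443794 (0.571) and 3L:20723338-20734138 (0.584). Their covered share in replicate 1 ran from 65.2% to 72.3%, below the lower quartile of all members, 93.7%. In replicate 2 it ran from 63.6% to 97.7%. All 5 were under 12 kb wide.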

How the data were processed

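Wild-type Oregon-R larvae gave 2 ChIP samples and 2 inputs, per the labels' protocols. The submitters' processing notes name Bowtie 0.12.7 as a tool. The authors deposited lists of clusters with a first base, a last base and a signed score, with coordinates of FlyBase release 5, per the file headers. The labels and headers do not record the cluster caller, its threshold, the scale of the score, the use of the inputs or the way the whole-series list was built. No list holds counts, so depth is unknown.

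Only enriched clusters of 2L, 3L and 3R entered. Replicate coverage was the union of that replicate's clusters, and a touch was an overlap of at least 1 base. Gaps are the bases between cluster edges. Wilson intervals cover counting error only. The interval steps were tested on simulated data, under Python 3.11.15 with pandas 2.3.3, numpy 2.4.6, matplotlib 3.10.9 and scipy 1.17.1.

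The members and the measures were chosen with earlier results of these data known. Named regions follow a rule: the widest, the highest and lowest scored, the least covered, the most split and the most discordant broad clusters, those next to the width limit, and for each arm the densest window, the longest chain and the longest empty stretch. The gene table used here is of release 6, so no gene was assigned. Alternatives were other width limits, joined clusters, arms or replicates left out, and each replicate's own wide clusters.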

Additional observations from a re-analysis of the deposited data

How the results depend on the processing

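Of 90 alternative values, 55 stayed within the set margin and 35 moved beyond it. The margin was a fixed ratio for the number of broad clusters and the Wilson interval for the nearest-cluster and chain shares. For the other results it was 1 SD over the 2 replicates, such as 0.224 percentage points for the covered share and 15.2 for the split share. The margins are thus unlike, and the tally is no common measure of stability. The number of broad clusters, 586, was 321 with a limit of 15 kb, 177 with 20 kb and 356 without 3R. Their share of cluster bases, 50.7%, was 58.7% at 8 kb, 35.7% at 15 kb and 24.4% at 20 kb. It was 70.0% with clusters under 1 kb apart joined and 40.3% in the list of replicate 1. The covered share, 95.6%, was 95.2% at 8 kb, 96.2% at 15 kb, 96.6% at 20 kb and 92.5% joined. For wide clusters of replicate 1 it was 95.9%, counted in replicate 2 alone. For those of replicate 2 it was 95.2%, counted in replicate 1 alone. The split share was a mean of 36.5% over both replicates. It was 32.7% at 8 kb, 43.5% at 15 kb, 48.9% at 20 kb and 29.2% joined, all within its wide margin. For wide clusters of replicate 1 it was 21.0%. That value was counted in replicate 2 alone, where the share of the 586 members was 25.8%. For those of replicate 2 it was 47.2%, counted in replicate 1 alone, where the share of the members was 47.3%. The share whose nearest cluster is broad, 19.1%, was 26.1% at 8 kb, 12.5% at 15 kb, 10.2% at 20 kb, 31.6% joined and 15% in replicate 1. The number of broad clusters changed with these settings too. Of the same 3628 clusters it was 781 at 8 kb, 321 at 15 kb and 177 at 20 kb. It was 480 of 3747 in replicate 1 and 708 joined. A nearest cluster is more rarely broad where broad clusters are fewer. These shares therefore do not measure pairing alone, and their fall with a higher limit does not show weaker pairing. The median gap, 16869 bp, was 9945 bp at 8 kb, 39365 bp at 15 kb, 85913 bp at 20 kb, 13497 bp joined, 23876 bp in replicate 1 and 19958 bp in replicate 2. The share in chains, 41.3%, was 50.6% at 8 kb, 26.8% at 15 kb, 18.6% at 20 kb, 34.6% in replicate 1 and 36.8% in replicate 2, and 25.6% or 53.2% with chain gaps under 5 or 20 kb. The share matched by a wide replicate cluster, 80.9%, was 71.3% at 15 kb and 66.4% at 20 kb. In these the replicate cluster also had to reach 15 or 20 kb, so the rule for a match was stricter. Causes were not tested. With 1 replicate left out, the covered share was 95.5% to 95.8%, the split share 25.8% to 47.3% and the matched share 77.1% to 84.6%. These lie within 1 SD of a mean of 2 by construction, which is no sign of stability. No paired analysis was possible because the lists analysed here are of ChIP samples alone and no result comes from a test.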
